A study of Sus scrofa with 6 samples.

Results

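Expression of the ephrin, semaphorin, Slit and netrin guidance genes was compared between an earlier and a later time of differentiation of porcine satellite cells (PSCs), stem cells of skeletal muscle whose descendants fuse to form myotubes. Members were taken by their symbols, as every row of the expression table paired with a symbol that starts with EPHA, EPHB, EFNA, EFNB, SEMA, PLXN, SLIT, ROBO or UNC5, or that equals NRP1, NRP2, NTN1, NTN4 or DCC. This gave 65 of 28266 rows. Of these, 27 encode ligands and 30 encode receptors. The other 8, the 6 SLITRK genes, UNC5CL and UNC50, begin with the same letters but encode neither the guidance ligands nor their receptors and were counted apart. DCC, EFNA2, EFNA4, EFNA5, EFNB1, EPHA6, EPHA10, PLXNB2, SEMA4B and SEMA6B were not analysed here.

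The cells came from limb muscle of neonatal male Yorkshire pigs and were preplated to separate them from fibroblasts. They were switched from growth medium to medium with horse serum to differentiate. All 6 libraries are taken to be from cells given a negative control siRNA, from the letter N of their titles, with 3 libraries (replicates 4, 5 and 6) at 24 h of differentiation, called early, and 3 at a later time, called late. The sample labels give 48 h for the late group, whereas the series title and the study's text give 36 h. Whether the replicates are separate animals or cultures is not stated, so p-values measure the spread between these libraries, which may be technical. The labels' extraction text names endometrium, whereas their tissue and cell type entries name skeletal muscle and satellite cells.

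Guidance cues are secreted or membrane-bound proteins that attract or repel a cell or its processes by way of receptors that act on the actin cytoskeleton. Ephrins sit on the membrane and signal to Eph receptor tyrosine kinases on a neighbouring cell, and also signal backward into their own cell. Semaphorins signal through plexins, with neuropilins as co-receptors for most of the secreted class 3 members, Slits signal through Robo receptors, and netrins through DCC, neogenin and the UNC5 family. In muscle these cues are known for guiding motor axons to their fibres and for steering migrating muscle precursors.

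Values are FPKM, which scale a gene's fragment number by its counted length and by the library total. The libraries held from 16337486 to 21839399 fragments, recovered from the steps of the FPKM values. Of 12 myogenic markers 9 had a row, 6 of them were higher late and 0 lower, and their summed FPKM ranged from 4607 to 7515 early and from 15034 to 16602 late. Summed over 6 endothelial markers the FPKM was between 1.25 and 2.14 in all libraries, with KDR at 0. The 7 immune markers summed to between 4.63 and 5.92 early and between 2.05 and 3.37 late, with PTPRC and TYROBP at 0. Of the 2 immune markers tested, 0 were higher and 1 was lower late. This was CD14, between 2.1 and 3.3 early and between 1.0 and 1.4 late. The 7 fibroblast markers summed to between 236 and 304 early and between 403 and 545 late, of which COL3A1 was between 201 and 272 early and between 386 and 527 late, while PDGFRA was at most 0.680 and DCN fell from between 18.5 and 19.0 to between 5.09 and 6.89. Of the 3 Schwann and neuronal markers tested, TUBB3, with 9.15, 12.9 and 30.6 early against 4.11, 3.98 and 6.15 late, and STMN2 fell and SYN1 rose, from between 1.16 and 1.29 to between 3.27 and 4.39, and that list summed to between 12.03 and 35.9 early and between 7.83 and 9.92 late. The 7 pericyte and smooth muscle markers, 3 of them higher and 2 lower late, summed to between 277 and 291 early and between 231 and 285 late, with MYH11 at most 0.025. Early replicate 6 stood apart, with the lowest myogenic sum and the highest TUBB3, and with MYH3, the embryonic myosin heavy chain, at 151 against 677 and 517. It was the early library farthest from the median of its group in 26 of the 37 members tested (70.3%) and in 58.7% of all genes tested. Results are therefore given with and without it for some of the genes and counts, and the part of these marker shifts in the results was not tested.

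The test was limma on log2(FPKM + 1), run on the 14060 genes whose FPKM averaged 1 or more, with Benjamini-Hochberg adjustment over all of them. SE is the standard error of the log2 change, which is late minus early and understates the change of low genes. Of the members, 37 could be tested, namely 19 ligands, 17 receptors and UNC50. Past an adjusted p of 0.05 were 23 of the 37 (62.2%), 10 higher and 13 lower late, where 50.9% of all genes passed, 16.5% higher and 34.4% lower. The groups did not overlap in 24 of the 37 members (64.9%), close to the 63.6% of all genes. The median log2 change was -0.09 for the members and -0.16 for all genes, and the median size of the change, sign aside, was 0.48 against 0.34. Among the ligands 7 were higher (36.8%) and 5 lower (26.3%), with a median log2 change of 0.08, and among the receptors 3 were higher (17.6%) and 8 lower (47.1%), with a median of -0.29. That difference between ligands and receptors was not tested.

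The balance moves with the scaling of the libraries. Scaling by median ratios, which brings the median of all genes to 0.00, called 10 ligands, 7 higher and 3 lower, and 9 receptors, 3 higher and 6 lower, where 23.9% of all genes were then higher and 22.2% lower. Higher calls were 58.3% of the ligand calls on the deposited values and 70.0% with this scaling, against 32.4% and 51.9% over all genes. Without early replicate 6, 13 ligands passed, 8 higher and 5 lower, and 9 receptors, 2 higher and 7 lower, where 17.4% of all genes were higher and 34.8% lower. The receptor count was 7, 2 higher and 5 lower, in each of the fits without early replicate 5, late replicate 4 or late replicate 5, in which 39.6%, 40.8% and 34.8% of all genes passed against 50.9% with all libraries.

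**Figure D1:**
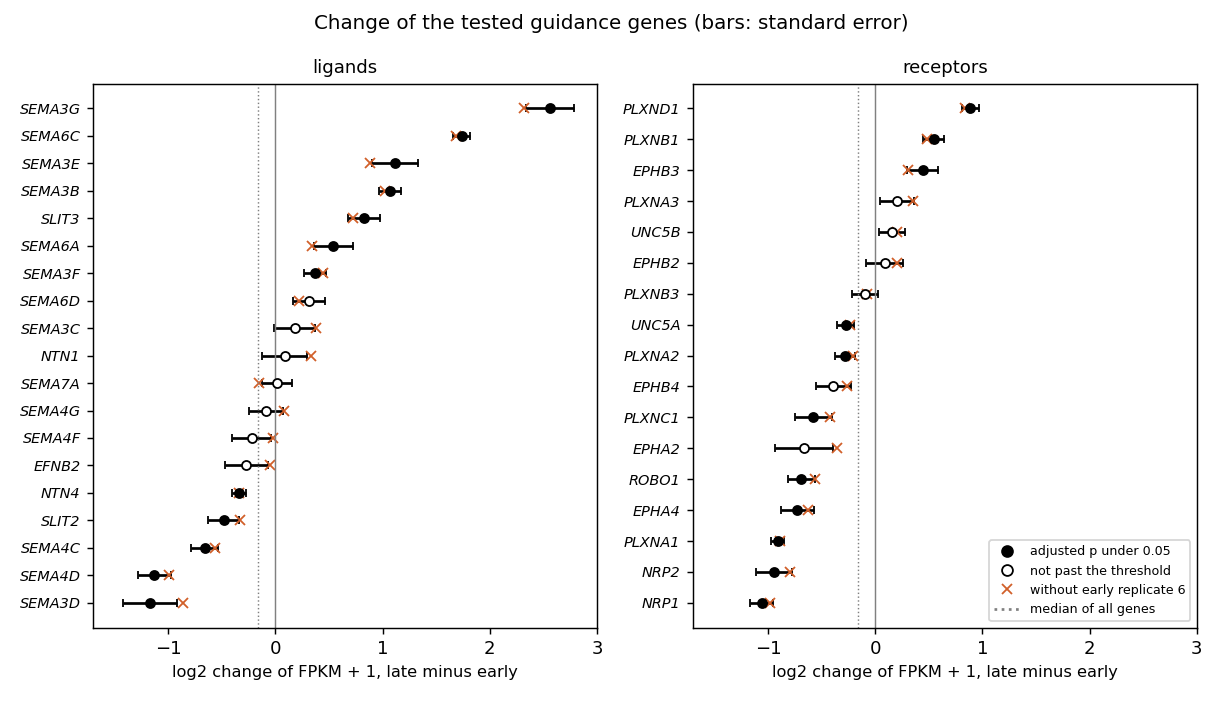
Log2 change of FPKM + 1, late minus early, for the 19 ligands (left) and 17 receptors (right) tested, with bars for the standard error. Filled circles passed an adjusted p of 0.05, open circles did not, crosses are the change without early replicate 6, and the dotted line is the median of all genes at -0.16. SEMA3G at 2.56 and SEMA6C at 1.74 are the largest rises, and SEMA3D at -1.17 is the largest fall with all libraries, while without early replicate 6 SEMA4D fell more.

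The class 3 semaphorins, the secreted class that acts mainly through neuropilins and A-type plexins, held the largest rise of all members and, on the log2(FPKM + 1) scale with all libraries, the largest fall. Without early replicate 6 the largest fall among the members tested was that of SEMA4D (-0.99, against -0.86 for SEMA3D). Among these members it was also the largest by the ratio of the group means. SEMA3G (ENSSSCG00000011440, chromosome 13 of Sscrofa11.1 from 34574014 to 34585686 in RefSeq) had an FPKM of 15.6, 12.9 and 8.21 in early replicates 4, 5 and 6 and of 88.4, 73.1 and 65.6 in late replicates 4, 5 and 6. Every late library was thus far above every early one. Its mean rose 6.17-fold, from 12.3 ± 3.76 to 75.7 ± 11.6 (SD, n = 3 each), from 1416 and 10702 fragments, with a log2 change of 2.56 (SE 0.22, adjusted p by limma = 0.000752). Without early replicate 6 the log2 change was 2.32. In bulk RNA, a change in the number of cells of a type and in the RNA per cell cannot be told apart, which holds for every result here.

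SEMA3D (ENSSSCG00000015396, chromosome 9 from 95280637 to 95486109), a secreted semaphorin known for the patterning of the pulmonary veins, ran the other way. Its FPKM was 34.3, 38.7 and 70.1 early and 18.2, 19.1 and 21.8 late. The groups did not overlap, and early replicate 6 lay well above the other early libraries. The mean fell from 47.7 ± 19.6 to 19.7 ± 1.86 (SD, n = 3 each), a log2 change of -1.17 (SE 0.25, adjusted p by limma = 0.00921), and the change was -0.86 without early replicate 6 (limma adjusted p = 0.00113). Within a library, where a scaling factor cancels, the FPKM of SEMA3G was between 0.117 and 0.456 times that of SEMA3D early and between 3.01 and 4.85 times late. SEMA3D therefore led the class in every early library and SEMA3G in every late one.

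SEMA3B (ENSSSCG00000011400, chromosome 13 from 32737100 to 32749633), a secreted semaphorin known as a tumour suppressor, had 8.04, 9.30 and 7.82 early and 17.01, 18.03 and 21.04 late. It rose 2.23-fold without overlap of the groups (log2 change 1.07, SE 0.10, adjusted p by limma = 0.000951). SEMA3E (ENSSSCG00000015399, chromosome 9 from 96682178 to 96941074), unusual in its class for binding PLXND1 without a neuropilin, had 1.22, 1.11 and 0.317 early and 2.88, 3.21 and 2.83 late. Its rise rested on 143 and 590 fragments, and early replicate 6 was the lowest library. The log2 change was 1.12 (SE 0.21, adjusted p by limma = 0.00573), and 0.88 without early replicate 6 (limma adjusted p = 0.00138). SEMA3F (ENSSSCG00000011398), a NRP2 ligand, had 3.54, 3.35 and 4.19 early and 5.12, 5.30 and 4.69 late. This smaller rise, 0.37 on the log2 scale (SE 0.10, adjusted p by limma = 0.0234), was lost without early replicate 4 (adjusted p = 0.0596), early replicate 5 (0.0789), late replicate 4 (0.0696) or late replicate 5 (0.0903).

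SEMA3C (ENSSSCG00000023784), known for its role in heart outflow tract development, had 2.98, 2.67 and 4.80 early and 4.33, 4.35 and 3.31 late. The groups overlapped, and the log2 change of 0.18 did not pass (limma adjusted p = 0.463), although it did without early replicate 6 (0.38, limma adjusted p = 0.0474). SEMA3A, the classical growth cone collapsing factor, lay under the FPKM minimum, with a mean of 0.561 early and 0.376 late. Summed over the 7 class 3 genes, the FPKM was 66.1, 68.5 and 96.2 early and 136.3, 123.5 and 119.6 late. SEMA3D took from 51.8% to 72.9% of that sum early and from 13.4% to 18.2% late, and SEMA3G from 8.5% to 23.6% early and from 54.9% to 64.8% late.

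**Figure D2:**
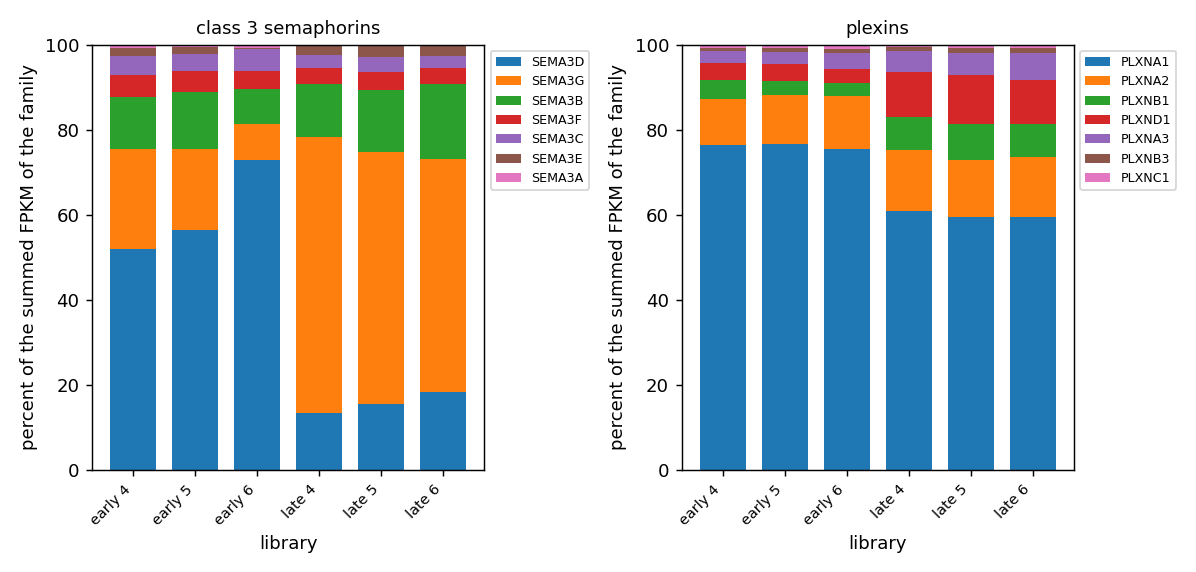
Share of each gene in the summed FPKM of the class 3 semaphorins (left) and of the plexins (right), in percent, for each of the 6 libraries, with genes that never reach 0.5% left out. SEMA3D fills the largest part of the early bars and SEMA3G that of the late bars, while PLXNA1 falls from about 76% to about 60% of the plexin sum.

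Of the transmembrane class 6 semaphorins, which bind A-type plexins directly, SEMA6C (ENSSSCG00000006635, chromosome 4 from 98107316 to 98121464) changed most, with 13.1, 13.3 and 11.6 early and 44.4, 47.4 and 42.0 late. Its replicates lay close together in both groups. The mean rose 3.52-fold, from 12.7 ± 0.914 to 44.6 ± 2.70 (SD, n = 3 each), from 2046 and 8817 fragments (log2 change 1.74, SE 0.08, adjusted p by limma = 0.00046, and 1.68 without early replicate 6). SEMA6A (ENSSSCG00000014224), known for its part in cerebellar granule cell migration, had 15.4, 14.5 and 9.64 early and 21.8, 19.8 and 16.4 late. Its groups did not overlap, but the call was near the threshold (log2 change 0.54, SE 0.18, adjusted p by limma = 0.0455). The call was lost in 6 of the alternatives, among them the fit without the minimum (0.0712). Others were the fits without early replicate 5 (adjusted p = 0.0644), early replicate 6 (0.34, adjusted p = 0.0502), late replicate 4 (0.135) or late replicate 5 (0.120). SEMA6D, at 1.33 ± 0.342 early and 1.88 ± 0.280 late (SD, n = 3 each), did not pass (limma adjusted p = 0.122).

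Class 4 semaphorins, also transmembrane, had 2 lower and 2 that did not pass among 4 tested. SEMA4D (ENSSSCG00000009584, chromosome 14 from 957074 to 1078522), also known as the immune semaphorin CD100 and the ligand of PLXNB1, had 5.09, 6.81 and 8.12 early and 2.54, 2.28 and 2.56 late. The late libraries lay close together, and all lay below the early ones. The mean fell from 6.67 ± 1.52 to 2.46 ± 0.155 (SD, n = 3 each), from 689 and 310 fragments, a log2 change of -1.13 (SE 0.15, adjusted p by limma = 0.00205). SEMA4C (ENSSSCG00000008197, chromosome 3 from 56750745 to 56760835), a PLXNB2 ligand, had 18.8, 19.3 and 23.4 early and 11.9, 11.2 and 14.7 late. It fell without overlap, by 0.66 on the log2 scale (SE 0.12, adjusted p by limma = 0.00562). SEMA4F, at 2.39 ± 0.849 and 1.85 ± 0.128, and SEMA4G, at 3.67 ± 1.03 and 3.31 ± 0.0703 (SD, n = 3 each), did not pass (limma adjusted p = 0.337 and 0.649).

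SEMA7A (ENSSSCG00000023165), anchored to the membrane by a lipid and known to act through integrins and PLXNC1, was among the most abundant ligands, with 37.9, 38.3 and 26.9 early and 32.4, 35.4 and 34.8 late. The groups overlapped (log2 change 0.01, SE 0.14, adjusted p by limma = 0.952). SEMA5A (ENSSSCG00000017095), a transmembrane semaphorin with thrombospondin repeats, lay under the FPKM minimum at 0.160, 0.146 and 0.164 early and 0.851, 0.589 and 0.499 late, from 26 and 132 fragments. The groups did not overlap, and without the minimum it passed (limma adjusted p = 0.00741).

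Slits diverged. SLIT3 (ENSSSCG00000017012, chromosome 16 from 54551536 to 55221427), a large secreted Robo ligand, had 7.84, 7.62 and 5.98 early and 15.4, 14.1 and 11.02 late. It rose 1.89-fold without overlap of the groups (log2 change 0.83, SE 0.15, adjusted p by limma = 0.00451, and 0.72 without early replicate 6). SLIT2 (ENSSSCG00000008749, chromosome 8 from 14758426 to 15149515), its closest relative, had 5.02, 4.56 and 6.91 early and 3.44, 3.40 and 3.95 late. Its fall of 0.48 on the log2 scale (SE 0.15, adjusted p by limma = 0.0311) was lost with median-ratio scaling (-0.34, adjusted p = 0.0749), quantile normalization (0.0928) or no minimum (0.0563). It was also lost without late replicate 4 (adjusted p = 0.0880), late replicate 5 (0.0987) or late replicate 6 (0.0501). The FPKM of SLIT3 was between 0.865 and 1.67 times that of SLIT2 early and between 2.79 and 4.48 times late. Both genes span a miR-218 gene in RefSeq (MIR218-1 in SLIT2 and MIR218B in SLIT3) and an unnamed long non-coding RNA, and fragments of overlapping genes cannot be told apart if strand was not counted, which is not stated.

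NTN4 (ENSSSCG00000000896), a secreted laminin-related netrin, had 15.1, 14.4 and 14.7 early and 12.0, 10.9 and 11.4 late. The groups were tight and did not overlap (log2 change -0.34, SE 0.07, adjusted p by limma = 0.00686). The change did not pass with median-ratio scaling (-0.17, adjusted p = 0.0762) or quantile normalization (-0.19, adjusted p = 0.0613). Its relative NTN1 (ENSSSCG00000017993), the classical netrin of the spinal cord midline, had 6.02, 6.72 and 11.4 early and 8.08, 7.63 and 9.22 late, with early replicate 6 above every other library. Its log2 change of 0.08 did not pass (limma adjusted p = 0.761), and it was 0.34 without that library (limma adjusted p = 0.0329). EFNB2, the transmembrane ligand of EPHB4, was the only ephrin tested and had 2.83, 3.24 and 5.41 early and 2.52, 3.12 and 3.04 late, with overlap (limma adjusted p = 0.286). EFNA1, which is tethered to the membrane by a lipid, averaged just under the minimum, with 0.948, 1.69 and 0.711 early and 1.04, 0.732 and 0.718 late.

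**Figure D3:**
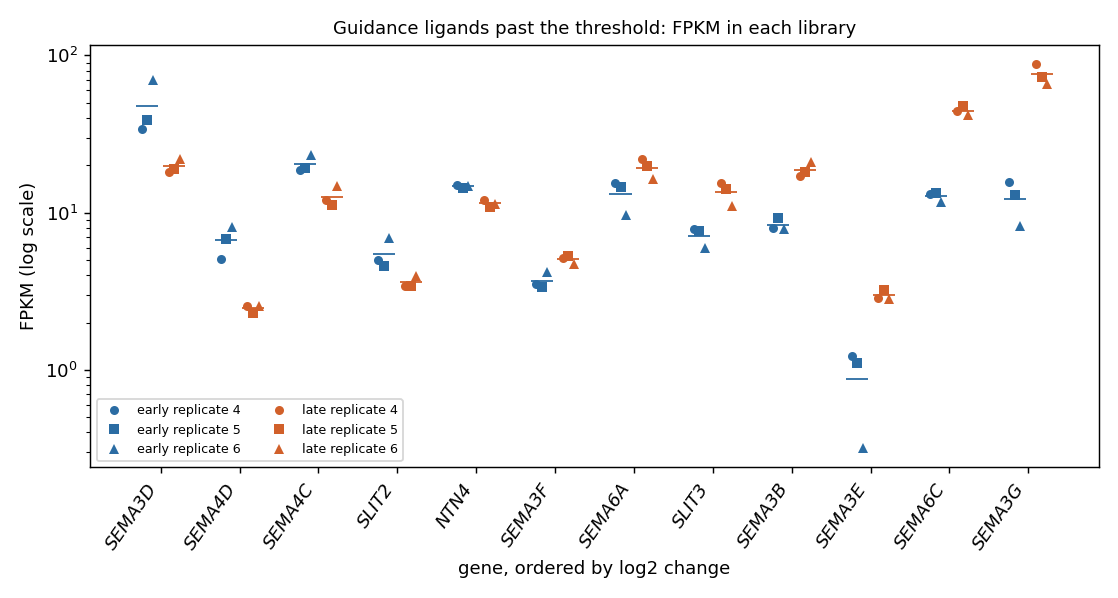
FPKM on a log axis in each library for the 12 ligands past the threshold, ordered from the largest fall to the largest rise, with a symbol for each replicate and a line at the mean of each group. Early replicate 6 (blue triangles) is the highest early library for SEMA3D at 70.1 and the lowest for SEMA3E at 0.317. The groups do not overlap in any of the 12, which were picked by the test on these same values. Of the 19 ligands tested 63.2% did not overlap, and of all genes 63.6%.

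The neuropilins, co-receptors that bind class 3 semaphorins and also vascular endothelial growth factor, both fell. NRP1 (ENSSSCG00000011102, chromosome 10 from 56280673 to 56430832) had 7.72, 8.08 and 9.51 early and 3.14, 3.63 and 3.80 late. Its lowest early library was still far above its highest late one. The mean fell from 8.44 ± 0.944 to 3.52 ± 0.342 (SD, n = 3 each), from 1214 and 617 fragments, a log2 change of -1.06 (SE 0.11, adjusted p by limma = 0.000984). NRP2 (ENSSSCG00000026383, chromosome 15 from 108974246 to 109092316) had 5.75, 5.57 and 8.15 early and 2.54, 2.54 and 3.52 late. It fell by 0.95 on the log2 scale, again without overlap (SE 0.17, adjusted p by limma = 0.00447), and by 0.79 without early replicate 6.

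Plexins, which carry a GTPase-activating domain inside the cell, had 3 lower (PLXNA1, PLXNA2 and PLXNC1), 2 higher (PLXNB1 and PLXND1) and 2 not past the threshold (PLXNA3 and PLXNB3) among 7 tested. PLXNA1 (ENSSSCG00000024001, chromosome 13 from 73054434 to 73098786), the partner of neuropilins for class 3 semaphorins, had the highest FPKM of all members, at 206.5, 223.4 and 225.4 early and 117.0, 113.7 and 116.4 late. Replicates differed little within either group. The mean fell from 218 ± 10.4 to 116 ± 1.74 (SD, n = 3 each), a log2 change of -0.91 (SE 0.06, adjusted p by limma = 0.000586), from 26970 and 17429 fragments. Its counted length was 2.48 kb, against 10.09 kb for PLXNA2, so its level beside other plexins depends on which part of the gene was annotated.

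PLXND1 (ENSSSCG00000011592, chromosome 13 from 68946658 to 68996625), the receptor of SEMA3E, had 10.9, 11.6 and 9.92 early and 20.1, 22.1 and 20.2 late. It rose 1.93-fold, from 3865 and 9120 fragments, with no overlap (log2 change 0.89, SE 0.08, adjusted p by limma = 0.000801). PLXNB1 (ENSSSCG00000011346, chromosome 13 from 31113910 to 31140133), the receptor of SEMA4D, had 11.7, 9.76 and 9.23 early and 14.9, 15.9 and 15.2 late. Its rise was smaller, 0.55 on the log2 scale (SE 0.10, adjusted p by limma = 0.00455), and an unnamed long non-coding RNA overlaps it in RefSeq.

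PLXNC1 (ENSSSCG00000000907), a SEMA7A receptor that overlaps CEP83 in RefSeq, had 1.52, 2.14 and 2.91 early and 1.05, 1.11 and 1.15 late. The groups did not overlap, and the fall of 0.58 on the log2 scale (SE 0.17, adjusted p by limma = 0.0299) was lost without early replicate 5 (adjusted p = 0.0787), late replicate 4 (0.0821), late replicate 5 (0.0828) or late replicate 6 (0.0667). Without early replicate 6 the fall was 0.42 (limma adjusted p = 0.0395). PLXNA2, a receptor of class 6 semaphorins, had 33.3 ± 3.90 early and 27.1 ± 1.09 late (SD, n = 3 each). Its call (log2 change -0.29, limma adjusted p = 0.0401) was lost with median-ratio scaling (-0.11, adjusted p = 0.281), quantile normalization (0.129), no minimum (0.0543) or no eBayes trend (0.054). It was also lost in 5 of the fits that left out a library, all but that without early replicate 4, at an adjusted p between 0.0614 and 0.130. PLXNA3, at 9.21 ± 1.95 and 10.7 ± 1.67, and PLXNB3, at 2.44 ± 0.246 and 2.22 ± 0.323 (SD, n = 3 each), did not pass (limma adjusted p = 0.314 and 0.536). Over the 8 plexins the FPKM summed to between 270.4 and 299.0 early and between 191.2 and 195.9 late. PLXNA1 held from 75.4% to 76.6% of that sum early and from 59.4% to 60.9% late, and PLXND1 from 3.3% to 4.0% early and from 10.3% to 11.6% late.

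**Figure D4:**
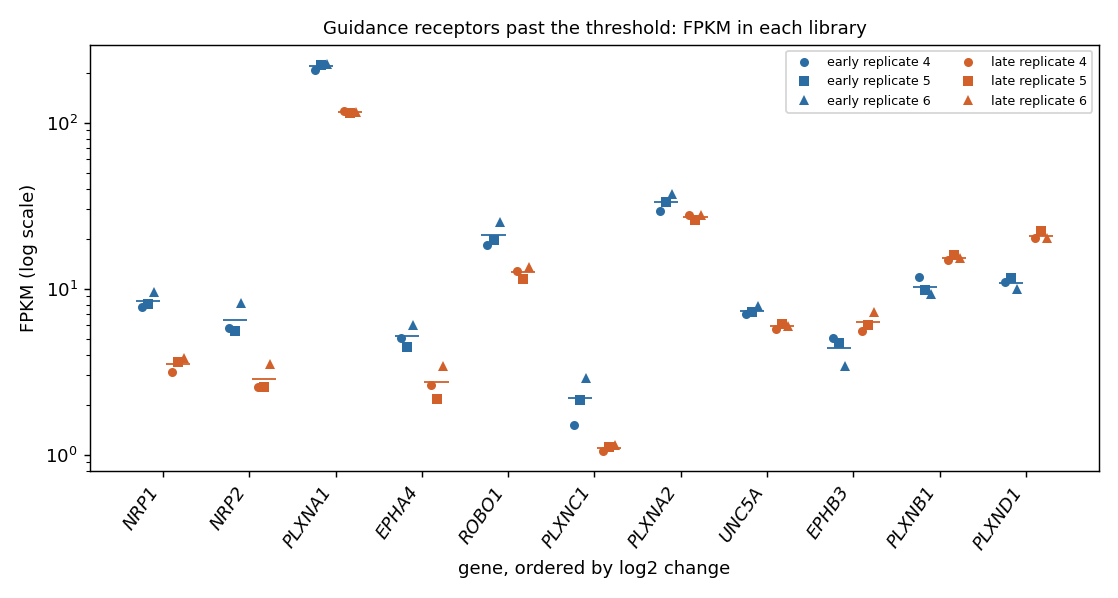
FPKM on a log axis in each library for the 11 receptors past the threshold, ordered from the largest fall to the largest rise, with a symbol for each replicate and a line at the mean of each group. PLXNA1 stands above all others in both groups, at 206.5 to 225.4 early and 113.7 to 117.0 late. The groups do not overlap in any of the 11, which were picked by the test on these same values. Of the 17 receptors tested 70.6% did not overlap, and of all genes 63.6%.

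ROBO1 (ENSSSCG00000012001, chromosome 13 from 175348223 to 176479482), a Slit receptor, made up at least 99.1% of the summed FPKM of the 4 Robo genes in every library. It had 18.4, 19.5 and 25.2 early and 12.8, 11.5 and 13.4 late. All late libraries were lower than all early ones (log2 change -0.69, SE 0.13, adjusted p by limma = 0.00521, and -0.56 without early replicate 6). ROBO2, ROBO3 and ROBO4, the last known from endothelium, were close to 0, with 4, 25 and 7 fragments in all 6 libraries.

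Of the 5 Eph receptors tested, 1 was lower, 1 higher and 3 did not pass. EPHA4 (ENSSSCG00000016230, chromosome 15 from 123350867 to 123501872), which binds ephrins of both classes, had 5.03, 4.45 and 5.996 early and 2.62, 2.18 and 3.43 late. It fell by 0.72 on the log2 scale without overlap (SE 0.16, adjusted p by limma = 0.00899). EPHA2, the most abundant A-type receptor, had 6.66, 8.01 and 14.9 early and 4.72, 5.46 and 6.44 late. Its groups did not overlap and early replicate 6 was the highest library, but the log2 change of -0.67 (standard error 0.27) did not pass (limma adjusted p = 0.0763), nor did that without early replicate 6 (-0.35, limma adjusted p = 0.0707), while the change without early replicate 4 did (-0.88, limma adjusted p = 0.0309).

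EPHB4, the EFNB2 receptor known from vein endothelium, had 7.20, 8.78 and 10.7 early and 5.79, 5.88 and 7.87 late. The groups overlapped and its log2 change of -0.39 did not pass (limma adjusted p = 0.0829), though it passed without early replicate 4 (adjusted p = 0.0360) or late replicate 6 (0.0468). EPHB3 (ENSSSCG00000026516), a receptor of B-type ephrins, had 5.03, 4.69 and 3.43 early and 5.59, 6.03 and 7.22 late, without overlap. The rise, 0.44 on the log2 scale (SE 0.15, adjusted p by limma = 0.0424), held without early replicate 4 but in none of the other fits that left out a library, which gave an adjusted p between 0.0580 and 0.123. Without the minimum the rise did not pass either (limma adjusted p = 0.0726). EPHB2 was near the minimum in both groups, at 1.03 ± 0.341 and 1.15 ± 0.266 (SD, n = 3 each, limma adjusted p = 0.691).

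Of the netrin receptors, UNC5A (ENSSSCG00000014049) had 7.05, 7.26 and 7.83 early and 5.68, 6.12 and 5.98 late. Its fall was small (log2 change -0.27, SE 0.08, adjusted p by limma = 0.0246). It was not past the threshold with median-ratio scaling (-0.12, adjusted p = 0.215) or quantile normalization (-0.09, adjusted p = 0.331). It was also lost without early replicate 5 or any late library (adjusted p between 0.0571 and 0.0768). UNC5B, also a dependence receptor, had 1.03 ± 0.127 and 1.26 ± 0.110 (SD, n = 3 each) and did not pass (limma adjusted p = 0.297). UNC50 had 15.1 ± 0.906 and 13.0 ± 1.32 (SD, n = 3 each, limma adjusted p = 0.108).

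The other 28 members had a mean FPKM under 1. They were 8 ligands (EFNA1, EFNA3, EFNB3, SEMA3A, SEMA4A, SEMA5A, SEMA5B and SLIT1), 13 receptors (EPHA1, EPHA3, EPHA5, EPHA7, EPHA8, EPHB1, EPHB6, PLXNA4, ROBO2, ROBO3, ROBO4, UNC5C and UNC5D) and 7 counted apart (UNC5CL and SLITRK1 to SLITRK6). EPHA8 and UNC5D had no fragment in any library, which allows up to 3 fragments per library and covers counting error only. Without the minimum, 22 of the 63 members fitted passed, those above it included, where 33.7% of all genes fitted did. The share among other genes under the minimum was not computed. Of the 28 members under it, 26 could be fitted and 3 passed. Besides SEMA5A they were SLITRK4, a neuronal adhesion protein, whose mean FPKM was 0.250 early and 0.785 late (limma adjusted p = 0.0183), and its relative SLITRK5, at 0.278 and 0.110 (limma adjusted p = 0.0146). Under the same fit UNC5C, a repulsive netrin receptor with 36 fragments early and 10 late, did not pass (limma adjusted p = 0.120).

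Some of the known ligand and receptor partners are set beside each other here. SEMA3E and its receptor PLXND1 both rose, by 1.12 and 0.89 on the log2 scale. SEMA4D fell by 1.13 while its receptor PLXNB1 rose by 0.55. NRP1 and PLXNA1, which together receive some class 3 semaphorins, fell by 1.06 and 0.91. NRP2 fell by 0.95, while its ligand SEMA3F rose by 0.37, a call lost in 5 of the alternatives. The summed FPKM of all 7 class 3 genes went from 77.0 ± 16.7 to 126.5 ± 8.76 (SD, n = 3 each). That sum includes SEMA3E and SEMA3F, given above with other receptors, so it is not a sum of ligands of NRP1 and PLXNA1. Within it the mean of SEMA3G went from 12.3 to 75.7 and that of SEMA3D from 47.7 to 19.7, and neither is assigned a receptor here. ROBO1 fell by 0.69, with SLIT3 higher and SLIT2 lower, though the SLIT2 call was lost in 6 of the alternatives. SEMA7A did not pass and PLXNC1 fell by 0.58, a call lost in 4 of the alternatives. EFNB2 and its receptor EPHB4 did not pass (limma adjusted p = 0.286 and 0.0829). These values come from the same libraries and say nothing of protein or of which cells carry either partner.

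Several members are neighbours on the pig genome. SEMA3D, SEMA3A and SEMA3E follow each other on chromosome 9 with gaps of 448.8 and 294.2 kb and no other protein-coding gene between them in RefSeq, and SEMA3D fell while SEMA3E rose. SEMA3F and SEMA3B lie 65.9 kb apart on chromosome 13 with 3 protein-coding genes between them, and both rose. SEMA3G lies 1824.4 kb from SEMA3B, with 49 protein-coding genes between. ROBO1 and ROBO2 are adjacent on chromosome 13, at 886.2 kb, and only ROBO1 was expressed above the minimum.

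A list of 96 genes that work with these receptors (cytoplasmic effectors, other co-receptors and other ligands) was compared in the same way. Of the list, 74 genes had a row and 59 were tested, of which 7 were higher (11.9%) and 27 lower (45.8%) past the threshold, against 16.5% and 34.4% of all genes. With median-ratio scaling they were 13 higher and 16 lower, and with quantile normalization, under which 21.6% of all genes were higher and 25.2% lower, 10 higher and 21 lower, so higher genes made up 20.6%, 44.8% and 32.3% of the calls, where over all genes they made up 32.4%, 51.9% and 46.2%. The median log2 change of the list was -0.30, against -0.16 for all genes. With median-ratio scaling it was -0.12 against 0, and with quantile normalization -0.17 against -0.04.

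The largest fall was in TIAM1, an activator of the GTPase Rac that works downstream of Eph receptors, from 38.6 ± 8.81 to 7.46 ± 1.68 (SD, n = 3 each), a log2 change of -2.22 (SE 0.20, adjusted p by limma = 0.000759). It was -2.05 without early replicate 6. NGEF, also called ephexin, an exchange factor bound by EPHA4, fell from 2.35 ± 1.30 to 0.321 ± 0.122 (SD, n = 3 each), a log2 change of -1.28 (limma adjusted p = 0.00773). Early replicate 6 was its highest library, at 3.85 against 1.49 and 1.71 in early replicates 4 and 5. Without that library the NGEF change was -0.98. SRC, a kinase shared by many receptors, fell from 51.5 ± 4.72 to 23.1 ± 3.25 (SD, n = 3 each), a log2 change of -1.13 (limma adjusted p = 0.00102). PAK3, a kinase activated by Rac and Cdc42, ADAM10, the protease that cleaves ephrins, and DAPK1, a kinase that binds UNC5 receptors, fell by 0.88, 0.81 and 0.78 on the log2 scale. The DAPK1 call was lost without late replicate 4 (adjusted p = 0.0506), late replicate 5 (0.0518) or late replicate 6 (0.0608). Without early replicate 6, its highest library at 2.83, the DAPK1 change was -0.57.

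Of the rises, DPYSL5, a member of the collapsin response mediator proteins that act below semaphorins, was the largest, from 10.2 ± 1.41 to 33.8 ± 1.76 (SD, n = 3 each), a log2 change of 1.64 (SE 0.11, adjusted p by limma = 0.000586). Its relative DPYSL2 fell, from 58.1 ± 10.5 to 37.8 ± 2.20 (SD, n = 3 each, log2 change -0.59, limma adjusted p = 0.00932), and by 0.46 on the log2 scale without early replicate 6. GRB10, an adaptor of receptor tyrosine kinases, RRAS, a GTPase switched off by plexins, RGMB, a neogenin ligand, ANKS1A, an Eph-binding adaptor, and CHN2, a Rac GTPase-activating protein, rose by 1.005, 0.64, 0.62, 0.59 and 0.59 on the log2 scale. NEO1, the neogenin receptor of netrins and RGM proteins, had 12.5 ± 1.22 and 9.51 ± 1.28 (SD, n = 3 each, limma adjusted p = 0.0364). This call did not hold in 8 of the alternatives, among them median-ratio scaling (adjusted p = 0.159) and quantile normalization (0.163). Others were the fits without early replicate 5 (0.0826), early replicate 6 (0.0736), late replicate 5 (0.0925) or late replicate 6 (0.0941). DPYSL2 and NEO1 were singled out after their values were seen.

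**Figure D5:**
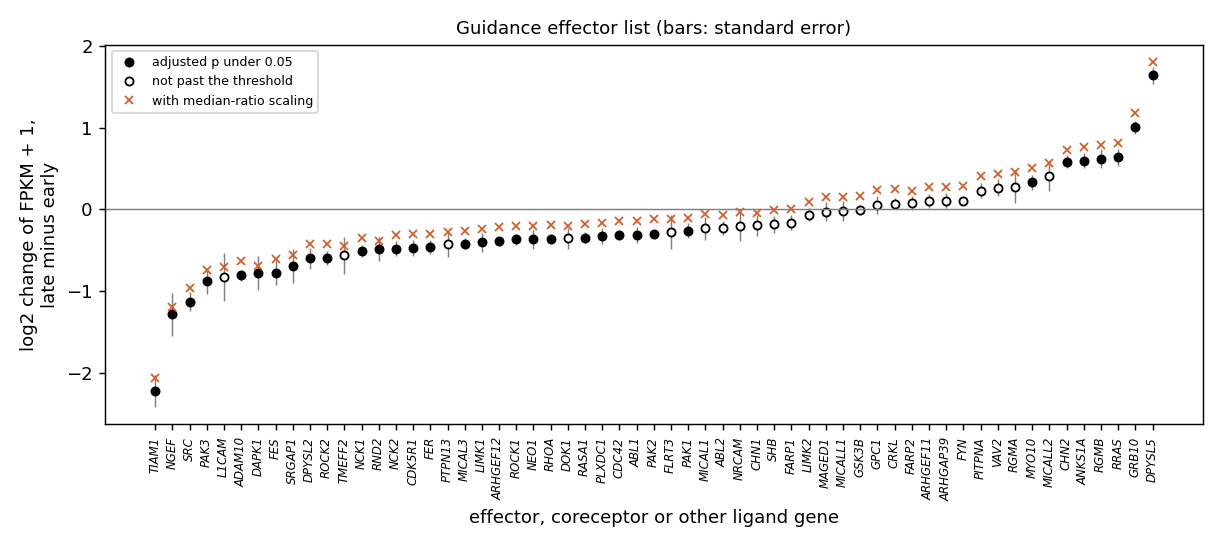
Log2 change of FPKM + 1, late minus early, of the 59 tested genes of the effector list, ordered by size, with bars for the standard error. Filled circles passed an adjusted p of 0.05, open circles did not, and crosses are the changes with median-ratio scaling, all above the circles. TIAM1 at -2.22 and DPYSL5 at 1.64 lie farthest from 0.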

How the data were processed

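RNA-seq was available as 1 table for 6 libraries. The authors sequenced paired-end reads on an Illumina platform, aligned these by HISAT2 to Sscrofa11.1, used StringTie for assembly and HTSeq for the count per gene, and deposited FPKM values, whereas the submitters' processing notes name TopHat2, Cufflinks and HTSeq. Strandedness and the handling of shared reads are not given in the sources used here. No sequences were used here.

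FPKM values are not counts, and the study's count-based test was not used. Instead, limma 3.58.1 in R 4.3.3 (lmFit, eBayes with a trend, two-sided tests) was run on log2(FPKM + 1) of the 14060 genes averaging an FPKM of 1 or more. The fit was run first on simulated data in which 200 of 14060 genes changed by 1 on the log2 scale. It recovered 75% of these, and 2.6% of its calls were false. In the real data 50.9% of genes passed, so the simulation does not cover so broad a change. Whole fragments were recovered from the steps of the FPKM values for all 19543 genes above 0 in at least 3 libraries (tolerance 0.02). Where the implied length was not whole, a common factor was restored.

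Symbols were paired with 11804 of 25322 Ensembl identifiers, and coordinates were matched by symbol to RefSeq (Sscrofa11.1). Libraries were grouped by their treatment label. The members and lists were chosen with earlier results of these data known. Every tested member is named. FPKM in every library is given for the 20 members past the threshold with the largest changes and for the most abundant member of each family, and was added for others where 1 library decided the call or they complete a family, and of the effector list the named genes are, among those past the threshold, the 6 that rose most and the 6 that fell most. UNC50 meets the symbol rule and was placed with the genes counted apart after the table was seen. Alternatives were pseudocounts of 0.1 and 0.01, no minimum, a minimum of 5, median-ratio scaling, quantile normalization, no eBayes trend, a block for the replicate number, leaving out each library, limma voom on the recovered fragments, and a required log2 change of 1. For the named effector genes these were added after their values were seen. Some genes of the marker lists are not reported here.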

Additional observations from a re-analysis of the deposited data

How the results depend on the processing

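Of the 37 members tested, 21 kept their direction and their side of the threshold in every alternative in which they could be tested, the stricter call below aside, 15 of them past it (7 higher and 8 lower). The FPKM minimum of 5 left only 22 members to test, 13 of the 21 and 11 of the 15 among them. A stricter call, with a log2 change of 1 or more in either direction as well, left fewer by construction. It kept 7 of the 37 members (6 ligands and 1 receptor) and 5 genes of the effector list, where 8.36% of all genes passed. Leaving out a library gave 16 to 24 members, 9 to 13 ligands, 7 to 13 receptors and 25 to 36 genes of the effector list. The share of all genes that passed also moved in these fits, between 34.8% and 52.2%. Direction turned only in members not past the threshold on the deposited values. PLXNB3 was at 0.029 with median-ratio scaling and 0.059 after quantile normalization, and SEMA4G at 0.047 and 0.090. Over the fits without 1 library the log2 change ran from -0.186 to 0.083 for SEMA4G, from -0.152 to 0.097 for SEMA7A, from -0.038 to 0.207 for EPHB2 and from -0.075 to 0.335 for NTN1, where the highest of SEMA4G, EPHB2 and NTN1 and the lowest of SEMA7A were without early replicate 6. The cause was not tested.

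Replicate numbers are shared by both groups, but the correlation of the deviations of same-numbered libraries from their group means was 0.15, -0.02 and 0.18 for numbers 4, 5 and 6, and the libraries were not treated as pairs. With the replicate block 23 members passed, 11 ligands, 12 receptors and 35 genes of the effector list, where 50% of all genes passed. EPHA2 (adjusted p = 0.0215) and EPHB4 (0.0189) then passed, and EPHB3 (0.0815) and SEMA3F (0.0527) did not. With limma voom on the fragments 23 members passed, where 51.5% of all genes did, and no member changed its side of the threshold. Members with few fragments limit the rest, and 8 of the 13 receptors under the minimum had a mean FPKM under 0.1.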
